A study of Arabidopsis thaliana with 8 samples.

Results

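Genes of named membrane transporter families were described across the 4 groups of a study of impaired formins in Arabidopsis thaliana seedlings. Members were all genes with a probe set of their own whose RefSeq symbol starts with one of the family names ABCA to ABCI, NRT, CHX, SWEET, AMT, KUP, HAK, PHT, SULTR, ZIP, STP, SUC, AAP, PIP, TIP or NIP followed directly by a digit. RefSeq holds 297 such symbols, of which 7 are PIP5K lipid kinases that share only the letters. Among the 16554 genes tested here there were 26 members, which were 14 SWEET genes, 9 CHX genes, the nitrate transporter gene NRT2.5 and the zinc transporter family genes ZIP6 and ZIP9. They include chx28, which RefSeq spells in lower case. The other 19 families had no member among the genes tested and were not analysed here, so ammonium, phosphate, sulfate, amino acid, water and ABC transporters are not described. The sugar transporter families STP and SUC and the potassium transporter families KUP and HAK are likewise absent. Of the RefSeq symbols, 14 of 15 SWEET, 9 of 28 CHX, 1 of 14 NRT and 2 of 13 ZIP were measured. The members were thus chiefly sugar and monovalent cation transporters, of the SWEET and CHX families only, and cover no substrate class in full.

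The tested groups were seedlings of the fh1-1 line, which carries a mutation in the formin gene FH1, on solid MS medium, and wild-type seedlings kept for 1 day in shaken liquid MS medium with 20 uM SMIFH2, an inhibitor of the FH2 domain of formins. Their references were a backcrossed wild-type sister of the fh1-1 line on solid medium, and the same wild type in shaken liquid medium without SMIFH2. All seedlings were of the Columbia background, 7 days old, and spent their first 6 days on solid medium in 16 h light and 8 h dark; both liquid groups then had continuous light while both solid groups stayed in long days. Each group had 2 arrays, each of a separate pool of about 120 whole seedlings, and the mutant is a single line. Whether the liquid control received the solvent of SMIFH2 is not given in the sources used here, and FH1 itself had 0 listed probe sets, so its transcript could not be checked.

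SWEET proteins are sugar uniporters that let sucrose or hexoses cross the plasma membrane or the vacuolar membrane along their gradient. The family falls into clades: members of clades I and II mostly carry hexoses, those of clade III carry sucrose well and include the exporters that feed the phloem, and those of clade IV sit in the vacuolar membrane. CHX proteins are cation/H+ exchangers thought to move potassium and other monovalent cations, many in inner membranes, and many CHX genes are best known from pollen. NRT2 proteins take up nitrate at high affinity, and ZIP proteins carry zinc, iron and other divalent metals into the cytosol.

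Values are log2 expression, on which a difference of 1 is a doubling. The arrays had medians of 3.89 to 3.96 and a 25th percentile of 2.13 to 2.24. The median standard error of a change was 0.18 over all genes. Across genes, arrays of the same group correlated at r = 0.988 to 0.993, and the fh1-1 arrays correlated with the SMIFH2 arrays at r = 0.990, although these groups differ in genotype, SMIFH2, medium and light. The fh1-1 arrays correlated with their own wild type at r = 0.952 to 0.960 and the SMIFH2 arrays with their own control at r = 0.964 to 0.971; genes are not independent replicates. Whole seedlings hold shoot and root, and marker genes of both were present. The mean level of 9 shoot and photosynthesis markers was 9.08 to 9.18 on the fh1-1 arrays and 6.90 to 6.95 on the wild-type arrays on solid medium, and 9.09 to 9.20 with SMIFH2 and 7.96 to 7.98 in the liquid control. That of 7 root markers was 7.79 to 7.85 in fh1-1 and 8.02 to 8.21 in wild type on solid medium. It was 7.82 to 7.83 with SMIFH2 and 7.25 to 7.27 in the liquid control. These 7, of 18 listed, were PYK10, BGLU21, BGLU22, JAL22, JAL33, JAL34 and EXPA7. All but the expansin gene EXPA7 are beta-glucosidase or jacalin genes, so they may not stand for the root as a whole. EXPA7 changed by 0.88 ± 0.22 in fh1-1 and by -0.17 ± 0.22 in liquid against solid medium. The 9 shoot markers, of 14 listed, were PSBW, LHB1B2, RCA, SBPASE, PSAN, PRK, HPR, FMA and SPCH. All but FMA and SPCH are genes of photosynthesis or photorespiration, so they may not stand for the shoot as a whole. Of the 9 shoot markers 9 were higher in fh1-1 (10.9% of all genes), 7 with SMIFH2 (7.78%) and 6 in liquid medium (2.22%). The markers not called with SMIFH2 were FMA (0.06 ± 0.18) and SPCH (0.51 ± 0.19). Of the 7 root markers 1 was higher (10.9% of all genes) and 3 were lower in fh1-1 (11.7%). With SMIFH2 4 root markers were higher (7.78% of all genes), and in liquid medium 5 were lower (2.48%). The part of these shoot and root markers in the transporter results was not tested.

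In the probe sets of 7 members the signal lay under the 25th percentile on all 8 arrays: CHX6A, CHX6B, chx28, NRT2.5, SWEET6, SWEET7 and SWEET8. Another 8 members lay under it on some arrays, and 11 stood above it on every array. For the first 7 the arrays give no sign of a level above the background, and small changes among them are described only as values.

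**Figure D1:**
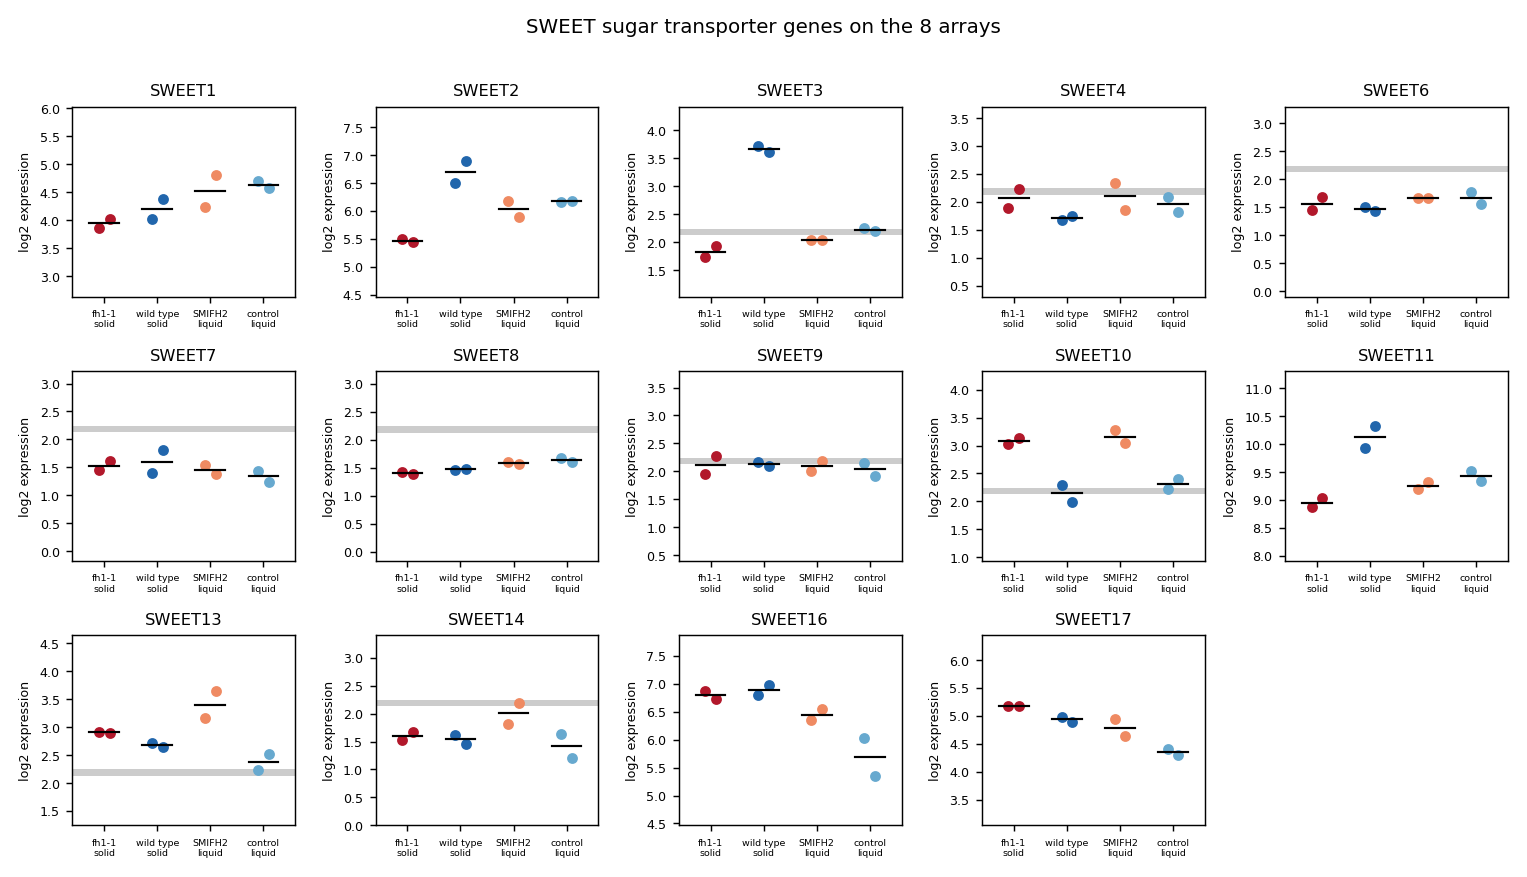
Log2 expression (y axis, each panel 3.4 units high) of the 14 SWEET genes in the 4 groups (x axis), with a point for each array and a line at the mean of the 2 arrays. The grey band spans the 25th percentile of the arrays (2.13 to 2.24). SWEET2, SWEET3 and SWEET11 stand highest in wild type on solid medium, SWEET10 stands higher in fh1-1 and with SMIFH2 than in either untreated wild-type group, and SWEET6, SWEET7 and SWEET8 stay under the band.

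Mutant and wild-type seedlings on solid medium were compared first. Of the 26 members 5 had an adjusted p under 0.05 by limma, or 19.2%, against 22.6% of all genes tested. Thus the share of transporter genes called was near that of genes in general. The cation exchanger gene CHX16 and the sugar transporter gene SWEET10 were higher in fh1-1 (2 members, with 10.9% of all genes called higher), and SWEET2, SWEET3 and SWEET11 were lower (3 members, with 11.7% of all genes called lower). Arrays of fh1-1 and wild type did not overlap for 14 members, 53.8%, against 60.9% of all genes. The median change of the members was -0.07, and that of all genes -0.05.

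SWEET11 (AT3G48740), which exports sucrose from phloem parenchyma cells in leaf veins, stood at 8.88 and 9.03 on the fh1-1 arrays, against 9.93 and 10.33 on the wild-type arrays. Every fh1-1 array lay below every wild-type array. The change was -1.18 ± 0.17 log2 units (SE, 2 arrays in each group, adjusted p = 0.00106), a level 2.26-fold lower in fh1-1. In whole seedlings, fewer cells of a type and less RNA per cell cannot be told apart, here and below. SWEET2 (AT3G14770), a vacuolar glucose transporter known for limiting the loss of sugar from roots, had levels of 5.50 and 5.44 in fh1-1, against 6.49 and 6.89 in wild type. Its groups were again apart, with a change of -1.23 ± 0.18 (adjusted p = 0.000885), or 2.34-fold lower.

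SWEET3 (AT5G53190), also of clade I, stood at 1.73 and 1.93 in fh1-1, against 3.72 and 3.61 in wild type on solid medium. Both fh1-1 values were under the 25th percentile of their arrays, while both wild-type values were above it. Its fitted change was -1.84 ± 0.15 (adjusted p = 2.67e-05), a value limited by the low end of the array's range. The third member of clade I, the plasma membrane glucose transporter gene SWEET1 (AT1G21460), gave -0.26 ± 0.21, with a 95% interval from -0.72 to 0.21, and did not pass. Of the 3 clade I genes 2 were lower in fh1-1, with 11.7% of all genes called lower.

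SWEET10 (AT5G50790), a clade III gene known to be switched on in the shoot apex at the start of flowering, was at 3.03 and 3.14 in fh1-1, against 2.30 and 2.00 in wild type. It was higher by 0.94 ± 0.17 (adjusted p = 0.00313), or 1.92-fold, and one of the wild-type values was under the 25th percentile. SWEET13 (AT5G50800), a sucrose transporter gene that lies next to SWEET10 with 0 coding genes between them, had 2.92 and 2.89 in fh1-1, against 2.72 and 2.64 in wild type. Its arrays did not overlap, yet the change of 0.22 ± 0.19 did not pass (adjusted p = 0.472). Whether the probe sets of such close relatives also detect each other's transcript was not tested. Of the 14 SWEET genes 1 was higher (10.9% of all genes) and 3 were lower (11.7%), together 28.6%, against 22.6% of all genes. The other 10 did not pass, and the median change was -0.05.

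The clade II genes SWEET4, SWEET6, SWEET7 and SWEET8 gave changes from -0.08 to 0.35. By limma 0 of 4 were called (22.6% of all genes, and 7.78% of those at or under the median level). At an unadjusted p under 0.05 it was also 0 of 4. SWEET4 lay under the 25th percentile on 6 arrays and the other clade II genes on all 8, so a lack of response cannot be read from them. SWEET8 is needed for pollen wall formation and SWEET9 (AT2G39060) for nectar secretion, functions of flowers, and SWEET9 changed by -0.02 ± 0.17. The vacuolar genes of clade IV, SWEET16 (AT3G16690) and the fructose transporter gene SWEET17 (AT4G15920), gave -0.10 ± 0.22 and 0.24 ± 0.16. Neither passed, and the 95% interval of SWEET16 ran from -0.58 to 0.39.

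Among the 9 CHX genes 1 was called higher by limma (10.9% of all genes) and 0 lower (11.7%), with 1 lower at an unadjusted p under 0.05. The gene called was CHX16 (AT1G64170). It stood at 5.33 and 5.56 on the fh1-1 arrays, against 3.71 and 3.10 on the wild-type arrays. The mutant level was 4.11-fold higher, a change of 2.04 ± 0.20 (adjusted p = 9.37e-05). Leaving out the second of these wild-type arrays gave 1.74 and leaving out the first gave 2.35, at adjusted p values between 6.41e-06 and 0.00196 over 16 alternatives.

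CHX19 (AT3G17630) had 4.46 and 4.07 in fh1-1, against 4.64 and 4.91 in wild type, and changed by -0.51 ± 0.21 (adjusted p = 0.111). CHX20 (AT3G53720), an exchanger of guard cells that takes part in stomatal opening, was flat within error at -0.03 ± 0.17, with a 95% interval from -0.41 to 0.35. CHX15 (AT2G13620) gave -0.48 ± 0.25 and CHX21 (AT2G31910) -0.29 ± 0.22, and neither passed. The neighbouring genes CHX6A and CHX6B, both under the 25th percentile throughout, gave 0.32 ± 0.14 and -0.06 ± 0.14. CHX23 (AT1G05580), known from pollen, gave -0.18 ± 0.23, and chx28 gave 0.09 ± 0.15. The median of the CHX genes was -0.06.

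**Figure D2:**
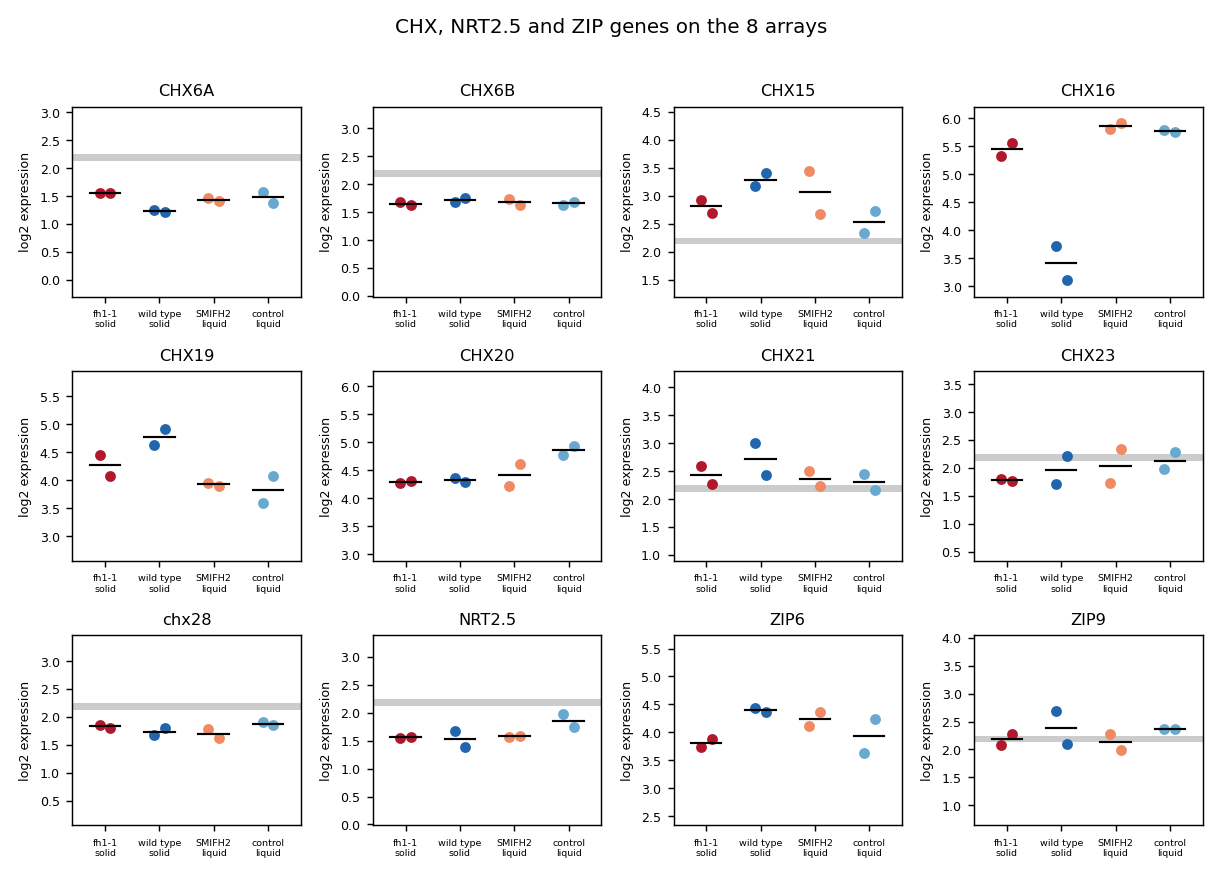
Log2 expression (y axis, each panel 3.4 units high) of the 9 CHX genes, NRT2.5, ZIP6 and ZIP9 in the 4 groups (x axis), with a point for each array and a line at the mean of the 2 arrays. The grey band spans the 25th percentile of the arrays. CHX16 stands low in wild type on solid medium (3.71 and 3.10) and between 5.33 and 5.92 on the other 6 arrays.

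ZIP6 (AT2G30080) had 3.74 and 3.88 in fh1-1, against 4.44 and 4.36 in wild type on solid medium. The groups were apart, but the change of -0.59 ± 0.20 did not pass (adjusted p = 0.0651). It passed in 4 of 16 alternatives, among them the fit of only these 4 arrays (adjusted p = 0.026), and its adjusted p ranged over them from 0.0227 to 0.266. ZIP9 (AT4G33020), known as a gene induced by zinc shortage, gave -0.21 ± 0.21. NRT2.5 (AT1G12940), known as a gene of nitrogen-starved plants, was at 1.55 and 1.57 in fh1-1 and at 1.67 and 1.39 in wild type, all under the 25th percentile.

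The second comparison asked what SMIFH2 changed in liquid medium. Of the 26 members 3 passed, or 11.5%, against 14.9% of all genes, again close to the share among genes in general. SWEET10, SWEET13 and SWEET16 were higher (7.78% of all genes were called higher), and 0 members were called lower by limma (7.07% of all genes), with 1 lower at an unadjusted p under 0.05. Arrays of SMIFH2 and control did not overlap for 13 members, 50%, against 53.8% of all genes. The median change was 0.04 in the members and -0.02 in all genes.

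SWEET13 stood at 3.16 and 3.65 with SMIFH2, against 2.23 and 2.51 in the liquid control. Both treated arrays were above both control arrays, by 1.03 ± 0.19 on average (adjusted p = 0.0055), or 2.05-fold. Its neighbour SWEET10 had 3.27 and 3.05 with SMIFH2, against 2.22 and 2.40 in the control, a rise of 0.85 ± 0.17 (adjusted p = 0.00832), or 1.80-fold. Without array 1 of SMIFH2 its adjusted p was 0.0719 and without array 1 of the liquid control it was 0.0524, in a range from 0.00583 to 0.0719 over 16 alternatives.

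SWEET16, whose product moves glucose, fructose and sucrose across the vacuolar membrane, had 6.34 and 6.54 with SMIFH2, against 6.04 and 5.35 in the control. It rose by 0.75 ± 0.22 at an adjusted p of 0.0458. This call was narrow: it was lost in 11 of 16 alternatives, with adjusted p values from 0.00867 to 0.204, and without array 2 of the liquid control the change was 0.41 at 0.204. For SWEET16 the adjusted p was also 0.112 and 0.203 without the first or second SMIFH2 array, 0.0706 without either fh1-1 array, 0.0599 without either wild-type array on solid medium, and 0.0564 with quantile normalization. SWEET17, the other member of clade IV, changed by 0.43 ± 0.16 and did not pass (adjusted p = 0.103).

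SWEET14 (AT4G25010), of clade III, had 1.82 and 2.19 with SMIFH2, against 1.64 and 1.21 in the control, at or near the level of the dimmest probe sets. Its change was 0.58 ± 0.19 (adjusted p = 0.0761). Of the 5 members of clade III 2 rose with SMIFH2, with 7.78% of all genes called higher. SWEET11 did not pass, at -0.18 ± 0.17, with a 95% interval from -0.57 to 0.21. The clade I genes gave -0.12 ± 0.21 for SWEET1, -0.13 ± 0.18 for SWEET2 and -0.19 ± 0.15 for SWEET3, none of them past the threshold. In clade II the changes ran from -0.06 to 0.14. Over the family 3 of 14 SWEET genes rose (7.78% of all genes) and 0 fell by limma (7.07% of all genes). At an unadjusted p under 0.05, 0 fell.

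No CHX gene was called by limma with SMIFH2 (0 of 9, against 14.9% of all genes), a count too small to set the family apart. At an unadjusted p under 0.05, 0 were higher and 1 was lower, and the changes ran from -0.44 to 0.52. CHX16 had 5.82 and 5.92 with SMIFH2, against 5.79 and 5.76 in the control, a change of 0.10 ± 0.20 with a 95% interval from -0.36 to 0.55. CHX20 had 4.21 and 4.62 with SMIFH2, against 4.78 and 4.94 in the control, at -0.44 ± 0.17 (adjusted p = 0.121). NRT2.5 (-0.28 ± 0.16), ZIP6 (0.31 ± 0.20) and ZIP9 (-0.23 ± 0.21) did not pass.

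**Figure D3:**
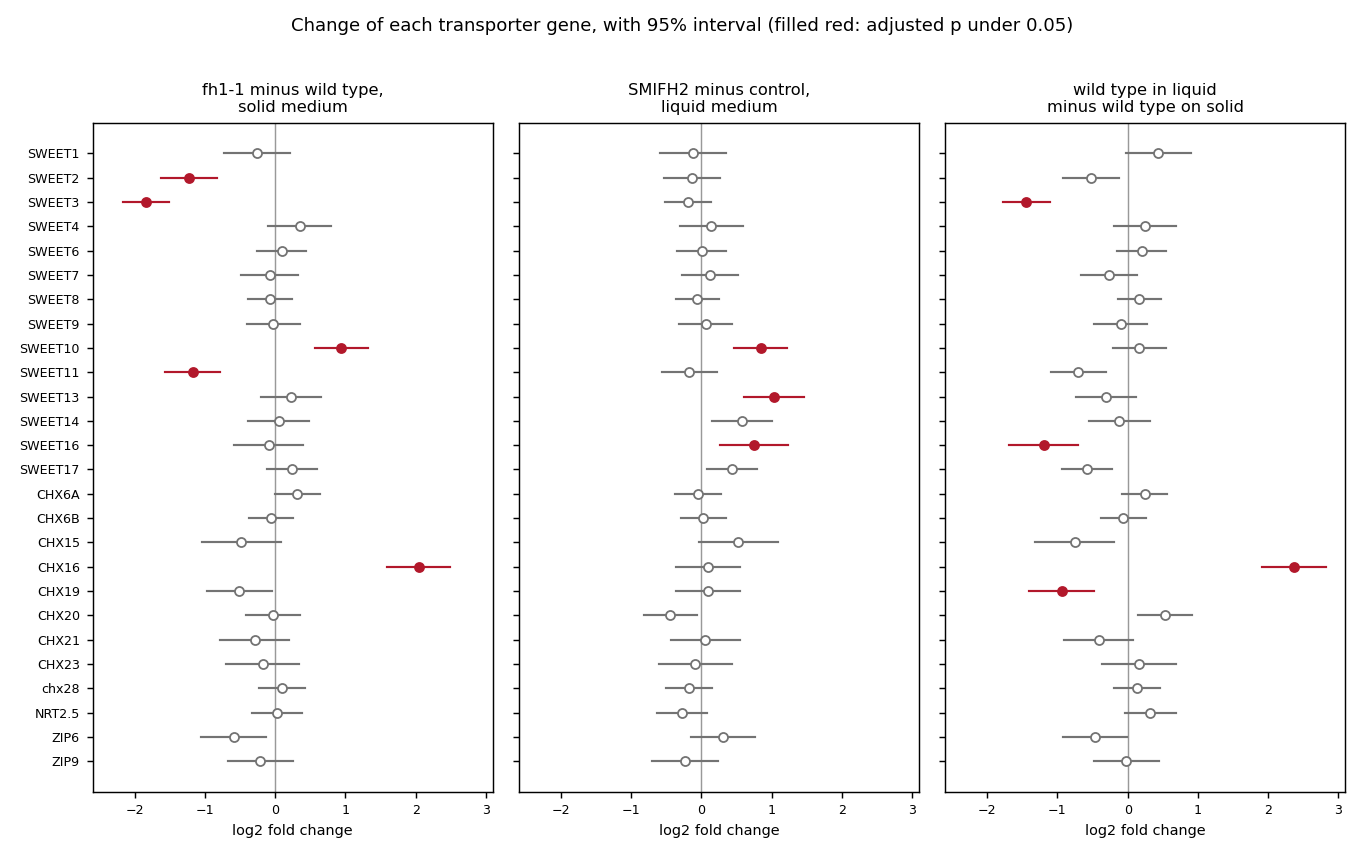
Log2 fold change (x axis) of each of the 26 transporter genes (rows) for fh1-1 minus wild type on solid medium, SMIFH2 minus control in liquid medium, and wild type in liquid minus wild type on solid medium. Points are the fitted changes with their 95% intervals as lines, and filled red points passed at an adjusted p under 0.05; SWEET10 is the one gene filled in both of the first 2 panels.

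The effects of the mutation and of the inhibitor were then compared directly, by the difference between the SMIFH2 change and the fh1-1 change. It passed for 2 of 26 members (7.69%, against 0.743% of all genes). SWEET3 was higher (0.356% of all genes), with a difference of 1.65 ± 0.21 (adjusted p = 0.014), and CHX16 was lower (0.387% of all genes), at -1.95 ± 0.29 (adjusted p = 0.0218). CHX16 changed by 2.04 ± 0.20 in fh1-1 and by 0.10 ± 0.20 with SMIFH2. Its liquid control (5.79 and 5.76) already lay somewhat above the mutant (5.33 and 5.56), groups that were not tested against each other. SWEET3 was already near the 25th percentile in its liquid control (2.25 and 2.20, with 2.04 on both SMIFH2 arrays). A fall as large as that in fh1-1 could thus not have been measured in full in liquid, which limits its difference of effects. Both calls ended over every probe set on the array, at 0.113 for SWEET3 and 0.145 for CHX16, and in 6 and 7 of 15 alternatives.

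Among the alternatives that ended these calls was the omission of single arrays. Without array 1 or 2 of fh1-1, the adjusted p was 0.0982 and 0.0524 for SWEET3 and 0.0982 and 0.0925 for CHX16. Leaving out the second wild-type array on solid medium gave 0.0603 for SWEET3 and 0.0613 for CHX16. Without array 1 or 2 of SMIFH2 it was 0.0835 and 0.0782 for SWEET3, and 0.114 and 0.1 for CHX16, and without array 2 of the liquid control it was 0.0507 for CHX16. Over all alternatives the adjusted p ran from 0.00797 to 0.113 for SWEET3 and from 0.00393 to 0.145 for CHX16.

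SWEET2 and SWEET11, which fell in fh1-1 and did not pass with SMIFH2, were not shown to differ between the 2 effects, at 1.09 ± 0.25 (adjusted p = 0.0974) and 1.00 ± 0.25 (adjusted p = 0.115). Both did pass with an intensity-trended robust prior, at 0.0338 for SWEET2 and 0.0148 for SWEET11. Nor was SWEET13, called with SMIFH2 only, shown to differ (0.81 ± 0.27, adjusted p = 0.243), and SWEET16 gave 0.84 ± 0.31 (adjusted p = 0.285). The changes of SWEET10 differed by -0.09 ± 0.24 (adjusted p = 0.925).

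The third comparison was that of wild type in liquid with wild type on solid medium, in which medium, shaking and light cannot be told apart. It shares the wild-type arrays on solid medium with the fh1-1 comparison, and the liquid control arrays with the SMIFH2 comparison. Changes in the same direction as fh1-1, or opposite to SMIFH2, are therefore not separate evidence. Both reference groups also enter the difference of effects, there with opposite sign. A medium change opposite to that difference, as in CHX16 and SWEET3, is not separate evidence either. Of the 26 members 4 passed (15.4%, against 4.71% of all genes). CHX16 was higher in liquid (2.22% of all genes), and SWEET3, SWEET16 and CHX19 were lower (2.48% of all genes). The arrays of the 2 groups did not overlap for 19 members, 73.1%, against 46% of all genes. The median change was -0.08 in the members and -0.03 in all genes.

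CHX16, at 5.79 and 5.76 in liquid against 3.71 and 3.10 on solid medium, was 5.16-fold higher, a change of 2.37 ± 0.20 (adjusted p = 0.000365). Its mean level was 5.45 in fh1-1 on solid medium, 5.87 with SMIFH2, 5.77 in the liquid control and 3.41 in wild type on solid medium, the one group that stood apart. SWEET3 had 2.25 and 2.20 in liquid, against 3.72 and 3.61 on solid medium, lower at -1.44 ± 0.15 (adjusted p = 0.000883), with the lower group near the 25th percentile. It too stood apart in wild type on solid medium, with means of 1.83 in fh1-1, 2.04 with SMIFH2 and 2.23 in the liquid control.

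SWEET16 was at 6.04 and 5.35 in liquid, against 6.80 and 6.98 on solid medium, a change of -1.20 ± 0.22 (adjusted p = 0.0147). Leaving out the second wild-type array on solid medium gave an adjusted p of 0.101, and without array 2 of the liquid control it was 0.0515, in a range from 0.00218 to 0.101 over 16 alternatives. CHX19, at 3.59 and 4.07 in liquid and at 4.64 and 4.91 on solid medium, gave -0.94 ± 0.21 (adjusted p = 0.0313). That call was lost in 7 of 16 alternatives, with adjusted p values from 0.0224 to 0.178, and without array 1 of the liquid control the change was -0.70 at 0.132. For CHX19 the adjusted p was also 0.0619 and 0.178 when the first or second solid-medium wild-type array was left out, and 0.0546 without either SMIFH2 array. SWEET11 gave -0.70 ± 0.17 and narrowly missed the threshold (adjusted p = 0.0527), with a range from 0.00543 to 0.268 over 16 alternatives, of which 5 passed. Leaving out the first solid-medium wild-type array gave 0.0428.

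The remaining members did not pass between liquid and solid medium. The second clade IV gene, SWEET17, stood at 4.41 and 4.30 in liquid, against 4.99 and 4.89 on solid medium, a change of -0.58 ± 0.16 (adjusted p = 0.072). Clade II genes ran from -0.27 to 0.25. The guard cell gene CHX20 gave 0.53 ± 0.17 (adjusted p = 0.122), CHX15 gave -0.76 ± 0.25 (adjusted p = 0.134), and SWEET2 gave -0.52 ± 0.18 (adjusted p = 0.141). NRT2.5 gave 0.32 ± 0.16, ZIP6 gave -0.47 ± 0.20 and ZIP9 gave -0.02 ± 0.21. Over the SWEET family 0 of 14 genes were higher in liquid by limma (2.22% of all genes) and 2 were lower (2.48%). At an unadjusted p under 0.05, 0 were higher.

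**Figure D4:**
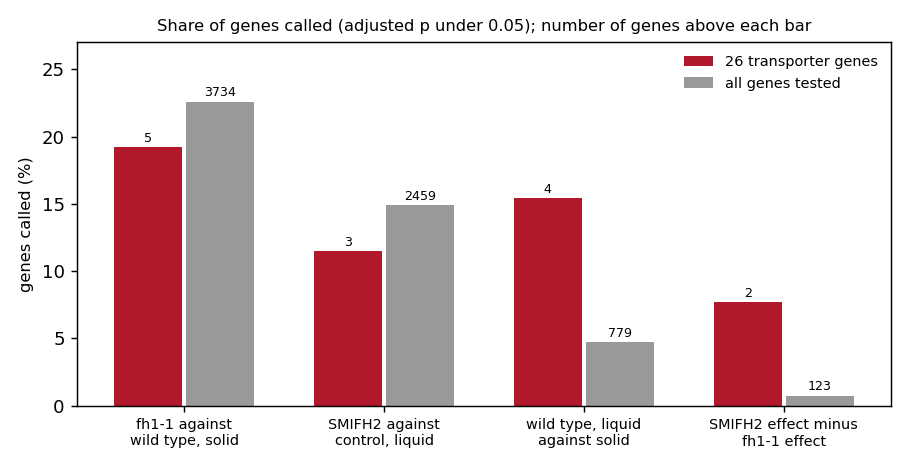
Percent of genes called at an adjusted p under 0.05 (y axis, from 0) among the 26 transporter genes and among all 16554 genes tested, for the 4 comparisons (x axis), with the number of genes called above each bar. The shares are 19.2% and 22.6% for fh1-1, and 11.5% and 14.9% for SMIFH2. They are 15.4% and 4.71% for the medium, and 7.69% and 0.743% for the difference of effects. In these last comparisons the transporter bars stand for 4 and 2 genes. The 2 are among the 4, and both comparisons use the same reference arrays.

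Many transporter probe sets were dim, and dim probe sets were called less often throughout the array. With all genes split at their median level, 17 members lay in the lower part, of which 2 were called in fh1-1 (11.8%, against 7.78% of all genes there), and 9 in the upper part, of which 3 were called (33.3%, against 37.3%). With SMIFH2 these counts were 2 of 17 (11.8%, against 5.3%) and 1 of 9 (11.1%, against 24.4%). Between liquid and solid medium they were 1 of 17 (5.88%, against 2.45%) and 3 of 9 (33.3%, against 6.96%), and in the difference of effects 1 of 17 (5.88%, against 0.278%) and 1 of 9 (11.1%, against 1.21%).

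Other transport protein genes were described from a list of further families. Many of them are glutamate receptor-like (GLR) genes. TMT1 and TMT2 are also counted with the sugar partitioning genes below, so the fall of TMT1 in fh1-1 enters both counts. Of 22 measured genes 3 were higher and 5 lower in fh1-1 (36.4%, against 22.6% of all genes), and 2 were higher and 2 lower with SMIFH2 (18.2%, against 14.9%). Between liquid and solid medium 0 of the 22 were called by limma (4.71% of all genes), and 0 in the difference of effects (0.743%). At an unadjusted p under 0.05 there were 2 higher and 3 lower for the medium, and 1 higher and 1 lower for the difference. OCT4 (AT3G20660), of the organic cation transporter family, had a mean of 5.40 in fh1-1 against 6.84 in wild type (-1.45 ± 0.19, adjusted p = 0.000581), and 5.37 with SMIFH2 against 6.84 in the control (-1.47 ± 0.19, adjusted p = 0.000911). OCT5 (AT1G79410), of the same family, changed by -1.10 ± 0.18 in fh1-1 (adjusted p = 0.00204) and gave -0.34 ± 0.18 with SMIFH2 (adjusted p = 0.27). PUP18 (AT1G57990), of the purine permease family, rose by 1.40 ± 0.15 in fh1-1 (adjusted p = 0.000132) and by 1.07 ± 0.15 with SMIFH2 (adjusted p = 0.0012). GLR3.5 (AT2G32390), a glutamate receptor-like channel gene, rose by 0.87 ± 0.16 in fh1-1 (adjusted p = 0.00432) and by 1.02 ± 0.16 with SMIFH2 (adjusted p = 0.00274).

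Genes around sugar transport were few on the list of those measured, with 4 of 17 genes of sucrose metabolism and sugar partitioning. In fh1-1 1 rose and 2 fell (with 22.6% of all genes called), and with SMIFH2 1 rose and 0 fell by limma (0 at an unadjusted p under 0.05; 14.9% of all genes were called). In liquid against solid medium 2 were lower (4.71% of all genes called), ATSPS4F by -0.59 ± 0.14 (adjusted p = 0.0441) and AT1G62660 by -1.05 ± 0.16 (adjusted p = 0.00495). ATSPS4F (AT4G10120), a sucrose phosphate synthase, rose in both, by 1.48 ± 0.14 in fh1-1 (adjusted p = 6.96e-05) and by 1.98 ± 0.14 with SMIFH2 (adjusted p = 2.3e-05). TMT1 (AT1G20840), which loads monosaccharides into the vacuole, fell in fh1-1 by 0.92 ± 0.19 (adjusted p = 0.00597), with a mean of 8.88 against 9.80 in wild type. Its homologue TMT2 (AT4G35300) gave -0.22 ± 0.17 and did not pass. AT1G62660, a vacuolar invertase gene, changed by -0.56 ± 0.16 in fh1-1 (adjusted p = 0.0272).

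For the other substrates only scattered pathway genes were measured. Of 3 sulfur assimilation genes 2 were higher and 1 lower in fh1-1 by limma (22.6% of all genes called). With SMIFH2 2 were higher (14.9% of all genes called). The ATP sulfurylase gene APS3 (AT4G14680) rose by 1.51 ± 0.15 in fh1-1 (adjusted p = 8.36e-05) and by 1.25 ± 0.15 with SMIFH2 (adjusted p = 0.000468). The sulfite reductase gene SIR (AT5G04590) rose by 0.71 ± 0.18 (adjusted p = 0.016) and 0.89 ± 0.18 (adjusted p = 0.00781). APS4 (AT5G43780) fell by 1.04 ± 0.20 in fh1-1 (adjusted p = 0.00461) and gave -0.20 ± 0.20 with SMIFH2 (adjusted p = 0.598). Of 3 iron and zinc homeostasis genes, bZIP19 (AT4G35040), a transcription factor of the zinc deficiency response, narrowly passed in fh1-1 at -0.46 ± 0.15 (adjusted p = 0.0484), and the closely related bZIP23 (AT2G16770) gave 0.40 ± 0.25. With SMIFH2 0 of these 3 were called by limma (14.9% of all genes), and 0 at an unadjusted p under 0.05. Of the lists for nitrogen assimilation, phosphate starvation and vascular markers, 0 genes were measured.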

How the data were processed

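Whole-seedling RNA was hybridised to Affymetrix arrays by NASC, per the labels' protocols. The authors deposited log2 expression values; RMA, Affymetrix Expression Console 1.4 and Transcriptome Analysis Console 3.1 are named, without their roles, per the submitters' processing notes, and the genome build is not given in the sources used here. The table held 38408 probe sets on 8 arrays, of which 17504 were listed in the platform annotation, 758 of them with several genes. The 16746 single-gene probe sets gave 16554 genes (the brightest probe set for 163 genes), named by Entrez ID from RefSeq (TAIR10.1); 136 genes had no match. Each member had 1 probe set.

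Changes between groups were fitted in R 4.3.3 with limma 3.58.1 over all 8 arrays, with empirical Bayes moderation and Benjamini-Hochberg adjustment over all genes (threshold 0.05). Alternatives were the replicate block, only the 4 arrays compared, every probe set, averaged probe sets, no dim genes, cyclic loess, quantile normalization, a trended robust prior, other thresholds and leaving out each array. Figures used matplotlib 3.10.9 in Python 3.11.15. Simulated data for 16554 genes held 200 changed genes. In the fh1-1 comparison 45 of 50 genes changed 2-fold and 50 of 50 changed 4-fold were recovered. In the SMIFH2 comparison 38 and 50 of 50 were recovered. At 1.5-fold 6 and 4 of 50 were recovered, and at 1.25-fold 0 in both. Far more genes were called in the real data (3734 in fh1-1 and 2459 with SMIFH2), where the adjusted threshold is thus less strict. The simulation therefore gives no detection limit for these data, and small changes can still be missed. The number of arrays limits the precision.

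The members and lists were chosen with earlier results of these data known, and the clades were assigned from background knowledge, so no test over them is given. Every member may be named; values on each array were given by rule to members past the threshold with a 2-fold change and arrays apart, or past it in the difference, and to examples chosen by the smallest adjusted p or nearest to 0. Of other lists, at most 4 genes with the smallest adjusted p are named, except that all measured shoot and root markers are named. Member examples beyond these were chosen after their values were seen. No sequences are shown.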

Additional observations from a re-analysis of the deposited data

Results flagged for a closer look

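The test of the difference between the SMIFH2 and the fh1-1 effect singled out a pair of members. CHX16 had a difference of -1.95 ± 0.29, from a change of 0.10 ± 0.20 with SMIFH2 and of 2.04 ± 0.20 in fh1-1. SWEET3 had a difference of 1.65 ± 0.21, from -0.19 ± 0.15 with SMIFH2 and -1.84 ± 0.15 in fh1-1. Its liquid control (2.25 and 2.20) was already near the 25th percentile of the arrays. A fall as large as that in fh1-1 could not have been measured in full from there, which limits this difference. The 25th percentile is not the lowest level read, since SWEET3 stood at 1.73 and 1.93 in fh1-1. In both genes wild type on solid medium was the group that stood apart. Photosynthesis and root marker genes moved between the same groups, and their part in these values was not tested.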

How the results depend on the processing

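All 5 members called in fh1-1 (CHX16, SWEET2, SWEET3, SWEET10 and SWEET11) kept their direction and their call in all 16 alternatives run for single genes, with 2 members higher and 3 or 4 lower without any single array. With a 2-fold change required, 1 member was higher in fh1-1 and 1 with SMIFH2. Without single arrays, 1 to 3 members were higher with SMIFH2, 1 to 3 were lower in liquid medium, and 0 to 1 were called in each direction in the difference of effects. Lower members in liquid medium numbered 1 in the fit of only the 4 arrays, 1 over every probe set and 1 at an adjusted p under 0.01. In the difference of effects 0 members were called in either direction over every probe set and 0 at an adjusted p under 0.01, and 3 were higher with the trended robust prior.

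Counts over all genes moved more. In fh1-1 they were 6205 over every probe set, 2093 at an adjusted p under 0.01, 1417 with a 2-fold change and 2056 to 3952 without single arrays. With SMIFH2 they were 1181 at 0.01, 916 with a 2-fold change and 1250 to 2396 without single arrays. For the medium they were 321 with only 4 arrays, 255 at 0.01, 351 with a 2-fold change and 284 to 599 without single arrays. For the difference of effects they were 77 with the replicate block, 3 over every probe set, 296 with the trended prior, 7 at 0.01 and 2 to 117 without single arrays.

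Arrays with the same repeat number did not deviate together (r = -0.06 to 0.01 between groups), so the numbers were not taken as pairs; with the replicate block, SWEET16 under SMIFH2 was the one member whose call was lost (0.059). CHX15 (0.91 at 0.0467, without array 2 of SMIFH2) and SWEET14 (0.79 at 0.0491, without array 1 of the liquid control) passed with SMIFH2 in 1 setting each. No member changed direction past the threshold. The cause of these shifts was not tested. Cyclic loess and quantile normalization moved the median change of all genes by less than 0.1. With 2 arrays per group, the 95% interval of a member's change in fh1-1 had a median of 0.40 on either side. The standard errors there ran from 0.14 to 0.25, and those of the difference of effects were larger. A signal above the 25th percentile was absent in 7 members.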
